A study of Rattus norvegicus with 3 samples.

Results

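Calmodulin, the protein kinases it and the second messengers cAMP, calcium and diacylglycerol control, and the serine/threonine phosphatases that oppose them were described in motor cortex of 3 male Sprague-Dawley rats. The genes were taken by their symbols: calmodulin, names that begin with Camk, subunits of cAMP-dependent protein kinase (PKA) and AMP-activated protein kinase (AMPK), protein kinases C (PKC) and D (PKD), catalytic subunits of the phosphatases PP1 to PP6, and regulatory subunits of PP2A and PP3 (calcineurin). This gave 71 of the 30957 rows in the files. Of the 71, 69 reached a mean FPKM of at least 1 and entered the tests, and Ppp3r2 and Prkag3 did not. FPKM is the number of fragments per kilobase of gene per 1000000 fragments, so levels of different genes can be compared per length. Taken in by their names alone were Prkcsh (beta subunit of glucosidase II), Prkcdbp (the caveolar protein cavin-3) and Camkmt (an enzyme that methylates calmodulin), which are none of these kinases, phosphatases or subunits.

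All rats, numbered 12, 24-4 and 33, belonged to 1 group. Each had undergone cerebral ischemia with reperfusion, in which blood supply is cut off and then restored, and electroacupuncture at GB20 (Fengchi), a point at the nape. The time label reads 8 weeks, counted from an event that the labels do not name. Each library came from a separate animal. Sham-operated, untreated or unstimulated rats were not analysed here, so the values show levels and their spread between treated animals, and no effect of either procedure was tested. Where 3 values are given for a gene, they are for rats 12, 24-4 and 33 in that order, and ± is the SD over these rats (n = 3).

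Calcium that enters a neuron binds calmodulin, and calcium-loaded calmodulin switches on the CaM kinases and calcineurin. CaMKII phosphorylates synaptic proteins and is needed for long-term potentiation, while calcineurin and PP1 remove phosphate and take part in long-term depression. PKA is held inactive by regulatory subunits until cAMP binds them, the conventional PKCs need calcium and diacylglycerol, and AMPK responds to a low energy charge. PP2A is built from a scaffold, a catalytic and an exchangeable regulatory subunit that directs it to its substrates.

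Summed FPKM was 476169, 464587 and 489810, and the depth behind it was estimated at 15330000, 17230000 and 13000000 fragments. For a transcript of 1 kb, an FPKM of 1 corresponds to 15.3, 17.2 and 13.0 fragments. The exact 95% Poisson limits of these are 8.64 and 25.2 in rat 12, 10.1 and 27.5 in rat 24-4 and 6.92 and 22.2 in rat 33, for counting error only. The cortical label was met by markers of glutamatergic neurons, whose 6 genes summed to 1457, 1582 and 812 FPKM. Of the cerebellar markers, Pcp2 was listed at 0 in all rats, Cbln3 and Gabra6 had means of 0.0536 and 0.175 FPKM, and Cbln1 and Calb2 had 5.29 and 7.20. The 6 choroid plexus markers summed to 3324, 129 and 13115 FPKM, and 4 of them passed the limma test of variability between rats at an adjusted p under 0.05.

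The calmodulin genes, Camk2a of CaMKII and a gene for a CaMKII inhibitor (Camk2n1) were among the most abundant transcripts of the cortex. By mean FPKM, Calm3 ranked 25th, Camk2n1 68th, Camk2a 70th and Calm2 84th of all rows. The members together made up 1.76, 1.64 and 0.997% of all FPKM, so their part was lowest in rat 33. The median level of the 69 tested was an FPKM of 29.6, against 10.5 for all 13754 genes tested, and 54 of the 69 lay above the median of those genes. In all, 15 members had a mean over 100 FPKM, while the PKD genes and the regulatory subunits Ppp2r3a and Ppp2r3b lay between 2.85 and 4.41.

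**Figure D1:**
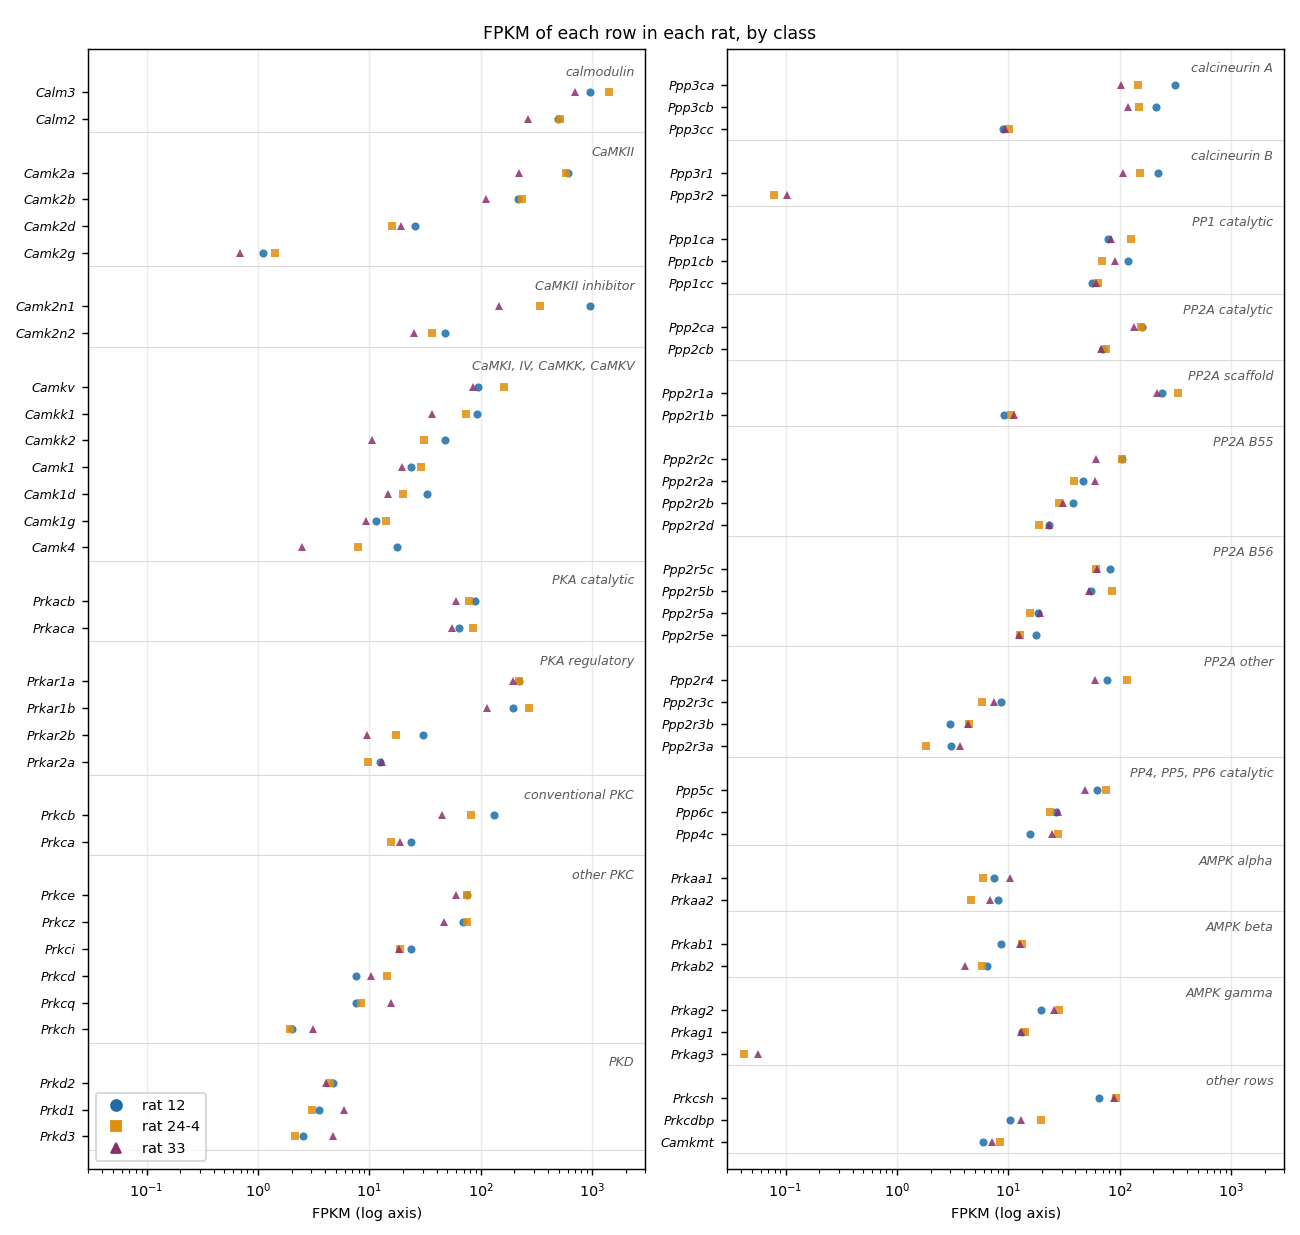
FPKM of 69 of the 71 rows on a log axis, with 1 symbol per rat (circle, rat 12; square, rat 24-4; triangle, rat 33) and rows grouped by enzyme class. Calm3 (702 to 1413) and Camk2n1 (145 to 954) reach farthest right, and the values of 0 for Ppp3r2 and Prkag3 in rat 12 cannot be drawn.

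Rat 33 tended to have the lowest values. With limma, no member stood out at an adjusted p under 0.05 from the between-rat spread of genes of similar level (0 of 69, against 14 of 13754 genes or 0.102%), and 4 had an unadjusted p under 0.05, which is 5.80%, close to the 5.96% over all genes. The order of the rats was uneven. Of the 69, 38 were lowest in rat 33 (55.1%, against 28.9% of all genes tested), 22 had the descending order rat 12, rat 24-4, rat 33 (31.9%, against 11.2%), and 2 had the opposite order (2.90%, against 21.3%). Highest in rat 33 were 12 members (17.4%, against 42.0%). These shares were not tested, since members share their libraries and are not replicates. Above a mean FPKM of 10, 34 of 55 members were lowest in rat 33 (61.8%), against 36.0% of 7077 genes. With the mitochondrial genome left out, the shares lowest in rat 33 were 58.0% of members and 33.1% of all genes, and with libraries scaled by the median ratio they were 59.4% and 34.9%.

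The 4 members with an unadjusted limma p under 0.05, and Prkcb after them, all had this order of rats. Camk4, a nuclear CaM kinase that phosphorylates CREB, had 17.8, 7.86 and 2.47 FPKM, a 7.18-fold span (limma adjusted p = 0.464). Camk2n1, which encodes a protein inhibitor of CaMKII, had 954, 339 and 145 FPKM, a 6.57-fold span (limma adjusted p = 0.543). In both genes the rats were well apart, with rat 12 highest. Camkk2, a kinase that activates CaMKI, CaMKIV and AMPK, had 47.3, 30.9 and 10.6 FPKM (limma adjusted p = 0.543). Prkar2b, the type II regulatory subunit of PKA that is typical of brain, had 30.0, 17.2 and 9.48 FPKM (limma adjusted p = 0.797). Prkcb, a conventional PKC, had 132, 80.7 and 44.8 FPKM (limma adjusted p = 0.874). Each adjusted p was far above 0.05, so none of these spans was set apart from the spread of genes at that level.

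The family medians followed this order to different extents. The median deviation from the mean of the rats, on the log2(FPKM + 1) scale, was 0.92, -0.021 and -0.90 for the 2 CaMKII inhibitors, 0.36, 0.26 and -0.51 for the 11 CaM kinase genes, and 0.49, -0.032 and -0.45 for the 4 calcineurin genes tested. For calmodulin it was 0.27, 0.33 and -0.48, and for PKA 0.10, 0.067 and -0.30. In all, 10 of 11 CaM kinase genes, all 3 calmodulin genes and 5 of 6 PKA genes were lowest in rat 33, against 28.9% of all genes tested. The same held for 3 of 4 calcineurin genes and both CaMKII inhibitors. It held for 7 of 16 PP2A genes, 4 of 9 PKC genes and 2 of 6 AMPK genes. Of PKD and of PP4, PP5 and PP6, 1 of 3 genes each was lowest there, and of PP1 0 of 3. Medians were near 0 for the 16 PP2A genes (0.066, -0.057 and -0.063) and the 9 PKC genes (0.11, 0.044 and -0.024). So were those of PP1 (-0.11, 0.081 and 0.0056), AMPK (-0.034, 0.086 and 0.086) and all genes tested (-0.056, 0.0068 and 0.068). Single genes of these families were not all steady, and some moved in opposite directions. Ppp1ca deviated by -0.25, 0.42 and -0.16 and Ppp1cb by 0.38, -0.39 and 0.0056. The median log2 SD was 0.36 for PP1 and for PKC, against 0.30 for PKA. PKD was highest in rat 33, with -0.15, -0.31 and 0.47. Differences between families were not tested.

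Markers of cell types also ranked the rats. Glutamatergic markers deviated by 0.55, 0.33 and -0.84, with 5 of 6 lowest in rat 33, and GABAergic markers by 0.51, 0.31 and -0.53, with 6 of 6 lowest there. Oligodendrocyte markers deviated by -0.52, -0.057 and 0.59 and microglial markers by -0.71, 0.027 and 0.72, and in both lists 6 of 6 were highest in rat 33. Their summed levels were 5323, 6965 and 12114 FPKM for oligodendrocytes and 110, 192 and 324 FPKM for microglia. Summed GABAergic markers came to 471, 518 and 264 FPKM, and astrocyte markers, which deviated by -0.49, -0.032 and 0.58, to 545, 636 and 731. Astrocyte markers were mixed: only 3 of 6 were highest in rat 33, and 1, Aldoc, was lowest there. No defining marker of these 5 cell types was at 0. In bulk tissue, fewer cells of a type and less RNA per cell cannot be told apart, and the part of cell makeup in the members' order was not tested. Rat 33 also had the lowest estimated depth and the highest sum of choroid plexus markers, whose part was not tested either.

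**Figure D2:**
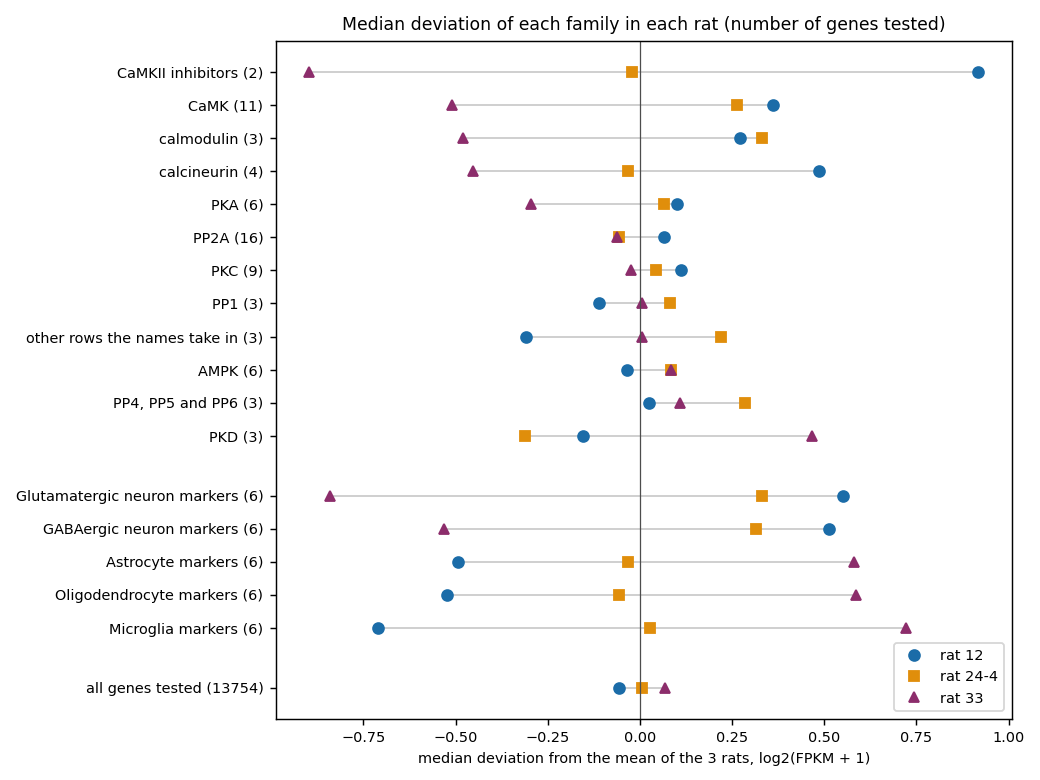
Median deviation of each family from the mean of the 3 rats, in log2(FPKM + 1), with 1 symbol per rat and the number of genes tested in brackets; marker lists of cell types and all genes stand below. CaMKII inhibitors (0.92 to -0.90), CaM kinases, calmodulin and calcineurin place rat 33 at the low end as neuronal markers do. PP2A, PKC, PP1 and AMPK lie close to 0. The medians of glial markers place rat 33 at the high end, though only 3 of 6 astrocyte markers were highest there.

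Upstream sequences of 5 members are shown to set differing windows side by side: those of both main CaMKII subunits, and of 3 members highest in rat 12 and lowest in rat 33 (Camk4, Prkar2b and Ppp3ca). Each is the 250 bases before the RefSeq start on GRCr8, 5′ to 3′ on the gene's strand, and capitals mark TGACG, the core of the cAMP response element that CREB binds, and GGGCGG, the GC box, on either strand.
Camk2a (chr18:56648930-56649179, plus strand): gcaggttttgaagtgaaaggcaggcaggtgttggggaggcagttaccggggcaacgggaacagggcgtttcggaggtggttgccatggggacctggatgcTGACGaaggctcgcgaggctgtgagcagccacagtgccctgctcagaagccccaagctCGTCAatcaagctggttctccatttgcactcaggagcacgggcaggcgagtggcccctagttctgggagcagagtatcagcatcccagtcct
Camk2b (chr14:85147945-85148194, minus strand): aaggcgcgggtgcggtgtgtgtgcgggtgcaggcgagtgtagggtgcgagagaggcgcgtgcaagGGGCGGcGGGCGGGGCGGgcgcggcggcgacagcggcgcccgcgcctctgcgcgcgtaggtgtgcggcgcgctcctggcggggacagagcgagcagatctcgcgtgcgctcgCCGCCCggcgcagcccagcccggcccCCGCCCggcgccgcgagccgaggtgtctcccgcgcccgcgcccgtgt
Camk4 (chr18:24856902-24857151, plus strand): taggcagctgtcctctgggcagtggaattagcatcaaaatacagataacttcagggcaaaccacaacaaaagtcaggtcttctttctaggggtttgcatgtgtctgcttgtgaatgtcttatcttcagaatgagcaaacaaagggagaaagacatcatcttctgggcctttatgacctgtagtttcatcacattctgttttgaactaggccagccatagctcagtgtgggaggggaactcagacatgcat
Prkar2b (chr6:54381412-54381661, minus strand): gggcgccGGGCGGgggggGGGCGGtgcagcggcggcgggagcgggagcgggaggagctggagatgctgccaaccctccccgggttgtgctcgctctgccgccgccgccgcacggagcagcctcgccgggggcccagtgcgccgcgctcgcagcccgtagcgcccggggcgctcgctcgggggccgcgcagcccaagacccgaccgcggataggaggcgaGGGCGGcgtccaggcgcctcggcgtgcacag
Ppp3ca (chr2:227839357-227839606, plus strand): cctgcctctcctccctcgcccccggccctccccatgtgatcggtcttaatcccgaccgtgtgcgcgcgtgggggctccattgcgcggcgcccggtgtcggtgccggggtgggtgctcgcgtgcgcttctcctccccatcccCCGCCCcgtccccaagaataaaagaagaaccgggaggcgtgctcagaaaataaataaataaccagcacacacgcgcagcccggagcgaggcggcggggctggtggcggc
The CaMKII pair differed in these letters: Camk2a had 2 TGACG matches, 150 and 92 bases before the start, no GC box and a GC content of 60.4%, whereas Camk2b had 5 GC boxes, no TGACG and 80.4%. Camk4 held neither and had 44.4%, Prkar2b had 3 GC boxes and 80.8%, and Ppp3ca had 1 GC box and 68.0%. Such windows were found for 56 members (60 windows), with a GC content of 30.4 to 86.4% and a median of 66.6%, against a median of 51.2% for 33469 windows of rat genes. Of the members' windows, 60.0% held GGGCGG, against 30.5% of all, 33.3% held TGACG, against 18.2%, and 25.0% held CCAAT, against 34.0%. The TATA box letters TATAAA were in 3.33%, against 12.9%. The full element TGACGTCA, which contains TGACG, was in the windows of Ppp2ca and Ppp2r2d, or 3.33%, against 1.59%. The windows of all genes were not matched to those of the members for GC content or expression, and these shares were not tested. A match is a run of letters and not a measured site.

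Calmodulin is encoded by genes that give the same protein in mammals, and the rows described here were highly expressed. Calm3 (chromosome 1, 78843080 to 78851719 on Rnor_6.0) had 947, 1413 and 702 FPKM, a mean of 1020.4 ± 361. Rat 24-4 was highest and rat 33 lowest. Calm2 had 490.1, 511 and 267 FPKM and was below Calm3 in every rat. Its row covers 1095 bases of chromosome 15 (65506874 to 65507968), shorter than the 8640 bases of Calm3, and how fragments of near-identical copies were divided was not tested, which leaves its level uncertain. On the log2(FPKM + 1) scale, Calm2 minus Calm3 was -1.27 ± 0.28.

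CaMKII forms holoenzymes of alpha, beta, gamma and delta subunits, of which alpha and beta predominate in forebrain neurons. Camk2a (chromosome 18, 56193978 to 56295869) had 604, 578 and 218 FPKM and Camk2b (chromosome 14, 86208901 to 86297652) had 215, 232 and 111. Both were lower in rat 33 and close together in the other rats (limma adjusted p = 0.908 for Camk2a and 0.993 for Camk2b). Camk2a was higher than Camk2b in every rat, with a difference of 1.26 ± 0.26 log2 units. Camk2a made up 67.9 ± 4.72% of CaMKII FPKM and Camk2b 28.4 ± 3.18%. The ratio of Camk2a to Camk2b was 2.80, 2.49 and 1.97, lowest in rat 33. Camk2d, found in many tissues, had 25.8, 15.8 and 19.1 FPKM, and Camk2g had 1.11, 1.41 and 0.683. Camk2g was far below Camk2d in each rat, by -3.35 ± 0.47 log2 units for Camk2g minus Camk2d.

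The inhibitors Camk2n1 and Camk2n2 bind the active kinase. Camk2n1 (chromosome 5, 156876706 to 156878486) ranged over 145 to 954 FPKM as given above, while Camk2n2 averaged 36.4 ± 11.5. Camk2n1 minus Camk2a was 0.66, -0.77 and -0.58 log2 units, so the inhibitor exceeded the kinase gene in rat 12 alone. The summed inhibitors over summed CaMKII gave 1.18, 0.454 and 0.489. Calmodulin, whose sum includes the uncertain Calm2 row, over CaMKII gave 3.50, 3.46 and 4.95. This ratio was highest in rat 33, where both sums were lowest. These ratios are of transcripts per length and say nothing of protein.

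Among the other CaM kinase genes, Camkv, which encodes a kinase-like protein of synapses without known activity, was highest. It had 95.1, 161 and 84.7 FPKM, with rat 24-4 on top. Camkk1, the other activating kinase, had 93.0, 74.0 and 36.8 FPKM. Camkk2 minus Camkk1 was -0.96, -1.23 and -1.70 log2 units, so Camkk1 was higher in every rat. The Camkk1 row shares 23094 bases with Itgae on the same strand, whose own values were 0.400, 0.577 and 1.15 FPKM. Camk1, a cytosolic kinase downstream of Camkk1 and Camkk2, had 23.8, 28.8 and 19.7 FPKM, and it overlaps Ogg1 by 331 bases on the opposite strand. Camk4 minus Camk1 was -0.40, -1.75 and -2.57 log2 units, farthest from 0 in rat 33, where Camk4 was lowest. Camk1d averaged 22.5 ± 9.17 FPKM and Camk1g 11.5 ± 2.34.

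PKA is a tetramer of catalytic and regulatory subunits. Of the catalytic genes, Prkacb had 87.8, 78.3 and 60.2 FPKM and Prkaca had 64.1, 85.6 and 54.6. Their order was reversed in rat 24-4, and Prkaca minus Prkacb was -0.15 ± 0.29 log2 units. Type I regulatory genes were much higher than type II. Prkar1a had 219.8, 219.5 and 192 FPKM, with little spread (log2 SD 0.11), and Prkar1b, enriched in neurons, had 195, 269 and 114 FPKM. Prkar1b was higher than Prkar1a only in rat 24-4, and it was lower in rat 33 than in the other rats (limma adjusted p = 0.989). Prkar2a had 12.5, 9.71 and 12.9 FPKM, so Prkar2b exceeded it in rats 12 and 24-4 but not in rat 33. Regulatory over catalytic FPKM was 3.01, 3.15 and 2.86 and varied little, whereas type I over type II was 9.77, 18.2 and 13.7.

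AMPK consists of a catalytic alpha and regulatory beta and gamma subunits, and its genes were modest in level. Prkaa1 had 7.50, 5.96 and 10.3 FPKM and Prkaa2 8.00, 4.63 and 6.81, so alpha1 was the higher in 2 rats and alpha2 in rat 12. Prkab1 had 8.62, 13.3 and 12.7 FPKM, above Prkab2 at 6.38, 5.81 and 4.05 in every rat. Among gamma subunits, Prkag2 had 19.7, 28.3 and 25.9 FPKM and exceeded Prkag1, which had 13.1, 14.1 and 13.0. Prkag1 was the steadiest of the 69 members, with a log2 SD of 0.058. Prkag3, known from skeletal muscle, was listed at 0 in rat 12 and at 0.0423 and 0.0560 in the others, below the FPKM of 0.174 and 0.231 that 3 fragments of a 1 kb gene would give there. Gamma over alpha FPKM was 2.12, 4.01 and 2.27, and beta over alpha 0.968, 1.80 and 0.981, both highest in rat 24-4, where the alpha sum was lowest.

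**Figure D3:**
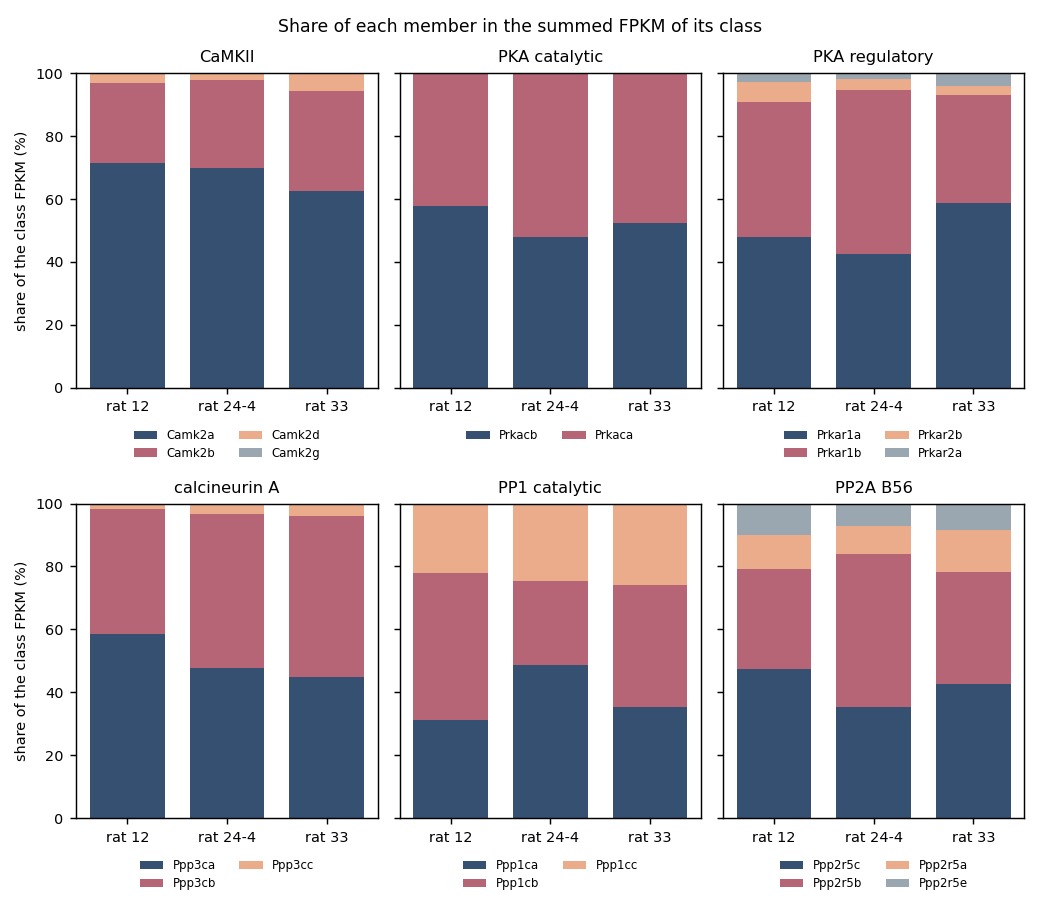
Share (%) of each gene in the summed FPKM of its class, 1 stacked bar per rat, for 6 classes. Camk2a (62.5 to 71.4%) leads CaMKII in every rat, while the leading gene of PKA, calcineurin A, PP1 and PP2A B56 changes between rats.

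Among conventional PKC genes, Prkca had 23.7, 15.7 and 18.8 FPKM and was below Prkcb in every rat. Of the other PKC genes, the calcium-independent Prkce had 75.3, 74.9 and 59.9 FPKM and the atypical Prkcz had 69.4, 75.1 and 46.6. Their order was not the same in all rats, but both were far above the rest. Prkcd had 7.62, 14.5 and 10.4 FPKM and Prkci 23.5, 18.9 and 18.2. Prkce minus Prkcd was 2.62 ± 0.46 and Prkcz minus Prkci 1.59 ± 0.32 log2 units. Prkcq averaged 10.5 ± 4.37 FPKM and Prkch 2.36 ± 0.646. Conventional over other PKC FPKM was 1.21, 1.22 and 1.08.

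PKD genes, whose kinases act downstream of PKC, were low. Prkd2 had 4.73, 4.39 and 4.09 FPKM and Prkd1 had 3.51, 3.04 and 5.93, so Prkd1 led in rat 33 only. Prkd3 averaged 3.13 ± 1.40 FPKM and was below Prkd1 in every rat.

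Calcineurin, the calcium-activated phosphatase, pairs a catalytic A with a regulatory B subunit. Ppp3ca (chromosome 2, 241909832 to 242184854) had 310, 147 and 103 FPKM, and Ppp3cb had 211, 149.5 and 118. Both were highest in rat 12 and lowest in rat 33, and Ppp3ca minus Ppp3cb was 0.55, -0.028 and -0.19 log2 units, so the order was clear in rat 12 only. Ppp3cc averaged 9.55 ± 0.601 FPKM. Ppp3r1, the B subunit of most tissues, had 221, 152 and 107 FPKM, close to Ppp3ca in rats 24-4 and 33. B over A FPKM stayed between 0.417 and 0.495. Ppp3r2, known from testis, was listed at 0, 0.0782 and 0.104 FPKM, under the floor of 3 fragments, and its 998 bases lie inside Grin3a on the same strand. CaMKII over calcineurin A FPKM was 1.60, 2.70 and 1.51, and Camk2a exceeded Ppp3ca by 1.34 ± 0.55 log2 units, in all 3 rats.

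PP1 catalytic genes were similar in level. Ppp1ca had 79.1, 126 and 84.0 FPKM, Ppp1cb 119, 69.3 and 91.4, and Ppp1cc 55.8, 64.0 and 61.7. Ppp1ca and Ppp1cb changed places, with Ppp1ca higher in rat 24-4 only, while Ppp1cc stayed below Ppp1cb in every rat. The summed PP1 FPKM was nevertheless even, at 254, 259 and 237.

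PP2A had the largest number of rows, and its catalytic genes varied little. The catalytic gene Ppp2ca had 157, 156 and 134 FPKM and Ppp2cb had 71.0, 74.7 and 67.5. Ppp2ca minus Ppp2cb was 1.05 ± 0.081 log2 units, the smallest SD of the 26 pairs compared, and Ppp2ca made up 67.6 ± 1.24% of the catalytic FPKM. The scaffold gene Ppp2r1a had 241, 334 and 217 FPKM, against 9.14, 10.5 and 11.3 for Ppp2r1b, so 96.1 ± 0.973% of scaffold FPKM was Ppp2r1a. Scaffold over catalytic FPKM was 1.10, 1.49 and 1.14, highest in rat 24-4.

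Of the regulatory subunits of the B55 group, the brain-enriched Ppp2r2c had 105, 104 and 61.2 FPKM. Ppp2r2a had 46.6, 38.9 and 60.1 FPKM, nearly equal to Ppp2r2c in rat 33, and Ppp2r2b had 38.2, 28.5 and 31.1. Ppp2r2d averaged 21.7 ± 2.43 FPKM. In the B56 group, Ppp2r5c had 82.1, 61.8 and 62.3 FPKM and Ppp2r5b had 55.6, 85.5 and 52.6. Ppp2r5b was the higher in rat 24-4 alone, as Prkaca, Prkar1b, Ppp1ca and Prkcz were in their classes. Ppp2r5a averaged 17.7 ± 1.84 and Ppp2r5e 14.3 ± 2.89 FPKM. B55 over B56 FPKM was 1.22, 1.08 and 1.20. Ppp2r4, an activator of PP2A rather than a B subunit, had 76.0, 117 and 60.1 FPKM, and Ppp2r3c had 8.52, 5.81 and 7.46.

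Ppp5c, a phosphatase that works with Hsp90, had 62.0, 74.4 and 49.0 FPKM and was above Ppp6c (26.1 ± 2.28) and Ppp4c (22.6 ± 6.29) in every rat. Of the rows taken in by name alone, Prkcsh had 65.5, 92.4 and 88.9 FPKM, Prkcdbp averaged 14.2 ± 4.80 and Camkmt 7.19 ± 1.27. In these 3 rows rat 12 had the lowest value each time, as it had in 37.9% of all genes tested.

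Ranked by mean FPKM, 21 classes with more than 1 row had a first gene, which was first in every rat in 11 and not in 10. Of 47 neighbours in these orders, 30 were separated in all rats and 17 were not. The gene that led in 1 rat alone differed from the leader of the other rats in 6 classes for rat 24-4, in 3 for rat 12 (Prkaa2 and Ppp3ca among them) and in 1 for rat 33 (Prkd1). Of the 26 pairs, 16 had 1 sign in all rats. For these the exact two-sided sign-flip test gave p = 0.25, the smallest that 3 rats allow, and 0.406 after Benjamini-Hochberg adjustment over the 26, so no pair could pass 0.05.

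**Figure D4:**
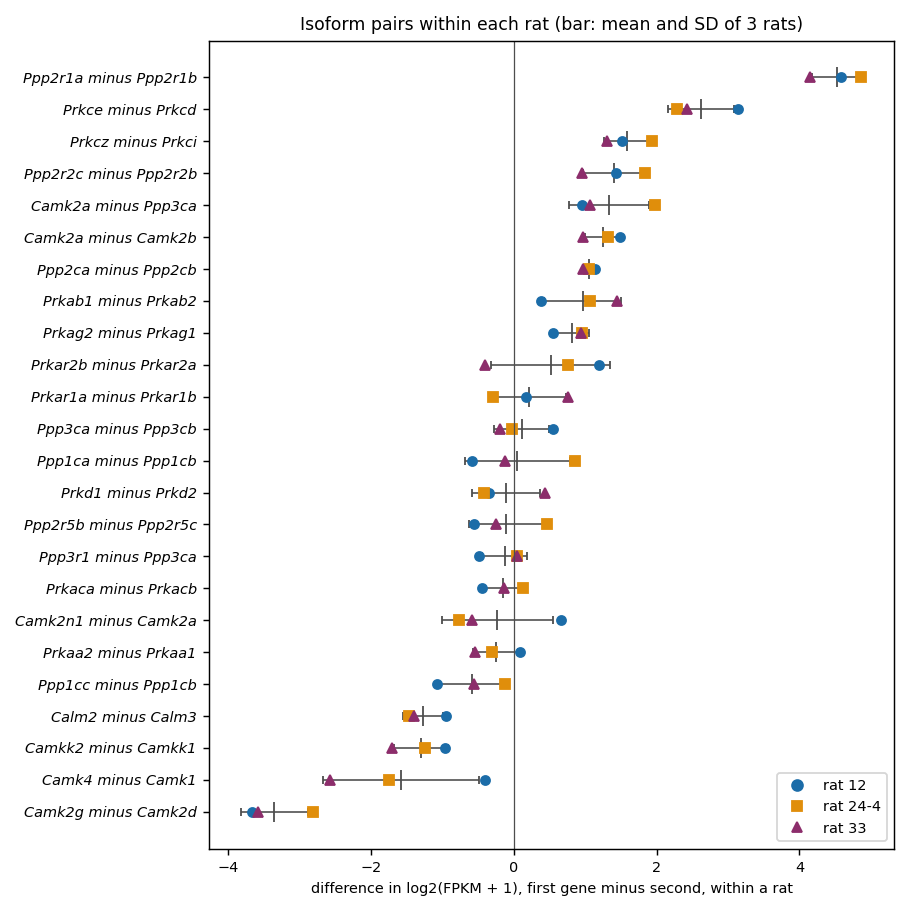
Difference of 24 gene pairs within each rat, first gene minus second, in log2(FPKM + 1), with 1 symbol per rat and a bar for the mean and SD of 3 rats. Ppp2r1a minus Ppp2r1b lies farthest right (4.53 ± 0.36), Camk2g minus Camk2d farthest left (-3.35 ± 0.47), and 10 pairs have rats on both sides of 0.

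Other genes of these pathways were placed in 8 lists of 103 genes, of which 100 were matched and 97 tested. None passed the adjusted limma p of 0.05, against 0.102% of all genes tested, and 8 had an unadjusted p under 0.05, against 5.96%. In these lists 53 of the 97 were lowest in rat 33, where 28.9% of all genes tested were. Above a mean FPKM of 10 that share was 36.0%. The counts of single lists that follow are to be read beside these shares, and differences between lists were not tested. Of the 10 synaptic partners of CaMKII, 8 were lowest in rat 33. Syn1, a synaptic vesicle protein that CaMKII phosphorylates, had 259, 271 and 129 FPKM, and Dlg4, the scaffold PSD-95, had 186, 237 and 103. Both followed Camk2a in being low in rat 33. The NMDA receptor genes Grin2a (6.18, 18.5 and 2.89 FPKM, limma adjusted p = 0.485) and Grin2b (1.68, 6.26 and 1.18 FPKM, limma adjusted p = 0.775) had the same order of rats, highest in rat 24-4 and lowest in rat 33.

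Of 15 calmodulin-binding and buffering genes, 10 were lowest in rat 33. Nrgn, which holds calmodulin at low calcium, had 931, 770.0 and 383 FPKM and the calcium sensor Hpca 358, 679 and 278. The buffers Pvalb (158, 149 and 51.8 FPKM) and Calb1 (57.1, 14.7 and 16.1 FPKM) and the calmodulin-binding transcription activator Camta1 (29.2, 11.2 and 7.45 FPKM) were highest in rat 12, with limma adjusted p-values of 0.797, 0.543 and 0.621. Among 8 tested regulators and targets of calcineurin, 5 were lowest in rat 33. Chp1, a calcineurin B-like protein, had 76.9, 77.2 and 62.9 FPKM, and the inhibitor Rcan2 had 52.3, 37.1 and 34.8.

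The PKA list of anchors, inhibitors and CREB had 6 of 15 genes lowest in rat 33. Of all genes tested 28.9% were, and of those above a mean FPKM of 10, 36.0%. Its highest genes were the inhibitors Pkig (41.3, 48.6 and 29.8 FPKM) and Pkia (47.9, 36.5 and 27.7). Akap5, which tethers PKA and calcineurin at synapses, had 29.7, 10.1 and 9.30 FPKM (limma adjusted p = 0.700), with rat 12 highest. PP1 targeting subunits and inhibitors were lowest in rat 33 in 6 of 16, close to the 36.0% of all genes above a mean FPKM of 10. The list was led by spinophilin, Ppp1r9b (165, 238 and 115 FPKM), and the PP1 inhibitor DARPP-32, Ppp1r1b (81.3, 93.7 and 62.2).

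Among 13 partners of PP2A, PP4 and PP6, 7 were lowest in rat 33. Arpp19, an inhibitor of PP2A once phosphorylated, had 189, 64.6 and 64.1 FPKM (limma adjusted p = 0.784), and the related Ensa had 78.1, 111 and 65.2. Rat 12 was highest for Arpp19 but not for Ensa. AMPK upstream and target genes were lowest in rat 33 in 5 of 10, with Cab39, a partner of the AMPK kinase LKB1, at 50.2, 28.7 and 35.7 FPKM. PKC activators and substrates were lowest there in 6 of 10. Of these, Dgkz, which removes diacylglycerol, had 121, 175 and 71.0 FPKM and adducin, Add1, 97.7, 127 and 87.6, while the phospholipase Plcb4 had 17.4, 3.14 and 4.10 (limma adjusted p = 0.521, and 0.0138 without rat 33).

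The 71 rows lay on 19 chromosomes of Rnor_6.0, with 11 each on chromosomes 1 and 6. Prkd2, Calm3 and Ppp5c are neighbours on chromosome 1, with 46.8 kb between Prkd2 and Calm3 and 92.3 kb between Calm3 and Ppp5c. On these rows rat 24-4 was highest for Calm3 and Ppp5c but not for Prkd2. Camk2g and Ppp3cb lie 214 kb apart on chromosome 15, with means of 1.07 and 159 FPKM.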

How the data were processed

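The authors deposited 1 table of FPKM per rat. Per the series' design text, fragments per gene were counted, normalized and converted to FPKM; the submitters' processing notes name HISAT2 (version 2.0.4), StringTie (version 1.3.0) and Rnor_6.0. How counts were normalized, and whether strand was used, is not given in the sources used here. Since FPKM is a share of the library, an abundant transcript lowers all others. A 0 can be a failed estimate, and 11974 rows were at 0 in all rats.

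Loci up to 400 bases long, with low values in steps of 1 fragment, gave the depth (93.9, 93.4 and 93.6% of 639, 620 and 661 values whole within 0.02). Whether it is a raw or a normalized size is not known.

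On the log2(FPKM + 1) scale, which shrinks differences of low genes, limma (version 3.58.1, R 4.3.3) fitted an intercept to 13754 genes whose mean FPKM was 1 or more. Each residual variance was set over its trended, robust prior (7.96 degrees of freedom) and given a one-sided p from the F distribution, with Benjamini-Hochberg adjustment over all genes. Pairs were compared by exact sign-flip tests over rats. Tables, exact tests and figures were made in Python 3.11.15 with pandas 2.3.3, numpy 2.4.6, scipy 1.17.1 and matplotlib 3.10.9.

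Values in every rat are given, apart from some genes that are not reported here, for the highest members of each class, members of the pairs, the 5 smallest p-values and any member listed at 0; of other pathway genes, for the highest 2 of each list, and also for those with an unadjusted p under 0.05, which were chosen after their values were seen. The members and lists were chosen with earlier results of these data known. Nfatc1, Cip2a and Rack1 of the pathway lists and the endothelial marker Pecam1 were not matched. Upstream windows came from RefSeq (GRCr8); no coordinates were converted.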

Additional observations from a re-analysis of the deposited data

How the results depend on the processing

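No paired analysis was possible because all rats belong to 1 group. In 10 settings of the limma test (as reported, or with another pseudocount, filter, prior or scaling, or a rat left out) 0 members passed; 2 to 6 had an unadjusted p under 0.05, and the smallest adjusted p ran from 0.400 to 0.985. Of the pathway genes, 0 to 1 passed with a rat left out, the 1 being Plcb4 without rat 33 (limma adjusted p = 0.0138). With a rat left out, the mean difference changed sign in 7 pairs, on the log2(FPKM + 1) scale: Camk2n1 minus Camk2a ran from -0.67 to 0.038, Prkar1a minus Prkar1b from -0.062 to 0.46, Prkd1 minus Prkd2 from -0.38 to 0.049, Ppp1ca minus Ppp1cb from -0.35 to 0.37, Ppp3ca minus Ppp3cb from -0.11 to 0.26, Ppp3r1 minus Ppp3ca from -0.22 to 0.052 and Ppp2r5b minus Ppp2r5c from -0.40 to 0.11. Of 21 leading genes, 16 to 19 stayed first with a rat left out and 18 by the median over rats, where Ppp3cb and Ppp1cb were among the leaders that differed. Leaving out the mitochondrial genome and rescaling raised the nuclear values by construction. It moved the median of all genes tested from 3.48 to 3.73 and 13 of 22 class medians by over 1 SD. The counts of members lowest in rat 33 under that rescaling and the median-ratio scaling were added after seeing the data. They gave 40 and 41, against 38. At a depth of 13000000 to 17230000 fragments, genes under an FPKM of about 1 rest on few fragments, which touches Camk2g, Ppp3r2 and Prkag3.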
